A study of Mus musculus with 15 samples.

Results

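The genes described here are 10 cyclins and cyclin-dependent kinases of the cell cycle, measured in mouse medulloblastoma and normal cerebellum. They are the D-type cyclins Ccnd2 and Ccnd3, the E-type cyclins Ccne1 and Ccne2, cyclin A2 (Ccna2), cyclin B1 (Ccnb1) and the kinases Cdk1, Cdk2, Cdk4 and Cdk6. They were chosen by name, and their probes were found through the RefSeq transcript that the array annotation gives for each probe. All 10 genes were on the array, out of 17158 genes with a symbol, on 19 of 41098 probes. Of these 19 probes, 18 were tested, having a signal well above background on 3 or more arrays, and every gene had at least 1 tested probe. Where a gene had several probes, the brightest over the 15 arrays gave its values, and the others are named where they differ.

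The study compared 12 medulloblastomas with 3 normal cerebella, on 1 one-colour Agilent array for each sample, which reads the amount of labelled RNA bound by a short gene-specific probe. All tumours came from Ptch1+/- mice on a C3B6F1 background. These mice carry 1 working copy of Ptch1, the receptor that restrains sonic hedgehog signalling, and develop medulloblastoma, a tumour of the cerebellum. The labels sort the tumours into R-type and S-type and do not explain the letters. R-type tumours came from mice given 1.5 Gy (MB10 to MB12) or 0.2 Gy of X-rays (MB7 to MB9) on postnatal day 1, and S-type tumours from mice given 0.2 Gy on that day (MB4 to MB6) or no irradiation (MB1 to MB3). Tumours were taken once a mouse had become moribund. The labels state an age without a unit: 87 to 127 in the R-type group, 128 to 173 in the S-type group and 103 to 113 among the normal cerebella. Type and age therefore cannot be told apart, and dose varied with both. All mice were female except the S-type MB6 at 0.2 Gy. The normal cerebella were not irradiated, and their genotype and strain are not given. The Ptch1 mutation was shared by all tumours, and no tumour without it was measured.

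Cyclins are regulatory subunits that appear and disappear with the cell cycle, and each activates a partner kinase. D-type cyclins with CDK4 or CDK6 begin the phosphorylation of the retinoblastoma protein, which releases E2F transcription factors. E-type cyclins with CDK2 carry the cell into DNA synthesis, cyclin A2 acts through DNA synthesis and into mitosis with CDK2 and CDK1, and cyclin B1 with CDK1 drives entry into mitosis. In the developing cerebellum sonic hedgehog from Purkinje cells keeps granule neuron precursors dividing, in part through D-type cyclins, and hedgehog-driven medulloblastoma arises from these precursors. Granule neurons of the adult cerebellum have left the cell cycle.

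Genes of the cell cycle are switched by a few short promoter elements. E2F factors bind E2F sites, the MuvB complexes bind the cell cycle genes homology region (CHR), the factor NF-Y binds CCAAT boxes, and MYC family dimers bind the E-box CACGTG. The 250 bases before the annotated start were read from RefSeq (build GRCm38.p6) for 7 of the 10 genes, which have 8 windows. Ccnd2, Ccne2 and Ccna2 are named only. Both strands were searched for CCAAT, for CACGTG, for the CHR as TTTGAA or TTCGAA, and for E2F sites as TTTCCCGC, TTTGGCGC, TTTGCCGC or TTTCGCGC, and no 2 matches overlapped. The windows below are shown because Cdk1 and Ccnb1 form the mitotic pair with the largest bounds between tumour and normal tissue, because Cdk4 holds 4 E-boxes, and because Ccne1 holds none. Matches are in capitals, and each window runs 5′ to 3′ on the strand of the gene.
Cdk1, chr10:69352913-69353162, minus strand: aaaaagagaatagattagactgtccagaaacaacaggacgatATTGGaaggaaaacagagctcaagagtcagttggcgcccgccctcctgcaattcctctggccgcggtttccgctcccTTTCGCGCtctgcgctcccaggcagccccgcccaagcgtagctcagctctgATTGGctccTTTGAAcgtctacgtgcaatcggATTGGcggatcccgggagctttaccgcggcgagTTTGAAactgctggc
Ccnb1, chr13:100786487-100786736, minus strand: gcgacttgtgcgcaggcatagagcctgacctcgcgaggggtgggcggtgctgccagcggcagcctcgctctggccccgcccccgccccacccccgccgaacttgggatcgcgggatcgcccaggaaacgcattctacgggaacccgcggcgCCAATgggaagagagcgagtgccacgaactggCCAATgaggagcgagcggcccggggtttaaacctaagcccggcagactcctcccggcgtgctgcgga
Cdk4, chr10:127063285-127063534, plus strand: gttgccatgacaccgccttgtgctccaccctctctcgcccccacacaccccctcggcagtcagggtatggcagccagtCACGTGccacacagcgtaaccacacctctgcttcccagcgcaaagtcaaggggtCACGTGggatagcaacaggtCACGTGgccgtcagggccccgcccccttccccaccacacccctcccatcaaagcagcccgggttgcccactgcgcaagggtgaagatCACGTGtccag
Ccne1, chr7:38107491-38107740, minus strand: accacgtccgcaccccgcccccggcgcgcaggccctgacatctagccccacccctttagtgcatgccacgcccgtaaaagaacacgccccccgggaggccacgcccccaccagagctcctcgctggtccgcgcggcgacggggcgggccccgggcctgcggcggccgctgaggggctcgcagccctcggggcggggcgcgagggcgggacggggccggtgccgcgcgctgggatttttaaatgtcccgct

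In Cdk1 the CHR motif TTTGAA begins 71 and 15 bases before the start, CCAAT boxes (read as ATTGG on this strand) begin 208, 80 and 48 bases before it, and the E2F site TTTCGCGC begins 131 bases before it. In Ccnb1 CCAAT boxes begin 99 and 67 bases before the start. In Cdk4 the E-box CACGTG begins 172, 118, 98 and 11 bases before the start. Of 32851 RefSeq promoter windows of this length, 17.1% held a CHR motif, 33.8% a CCAAT box, 10.1% at least 2 CCAAT boxes, 1.86% an E2F site and 6.02% an E-box. A CHR motif with at least 2 CCAAT boxes, as in Cdk1, stood in 1.71% of windows, and 4 or more E-boxes, as in Cdk4, in 7 windows (0.0213%). Among the windows not printed, Cdk2 held a CCAAT box and an E2F site (GCGGGAAA), Cdk6 held 1 E-box, and 1 of the 2 windows of Ccnd3 held a CCAAT box. These matches describe the letters of the windows, and binding was not measured.

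Values are given below on the log2 scale, each as a signal over the 75th percentile of its own array, so they compare arrays for 1 probe and not 1 gene with another. Between 59.1% and 66.5% of probes were well above background on an array, with 75th percentiles of the linear signal from 1183.9 to 1611.1. Tissue markers matched the labels: the summed linear signal of 10 Purkinje cell genes, in units of the 75th percentile, was 6.81 to 11.5 in tumours and 340 to 362 in normal cerebella, and that of 12 genes of granule neuron precursors was 160 to 203 in tumours and 105 to 118 in normal cerebella. Of these 12 genes 9 were higher and 1 lower in tumours, and Atoh1, Nhlh1 and Insm1 were not well above background on any normal array. The sum over 20 proliferation genes was 310 to 460 in tumours and 15.2 to 16.9 in normal cerebella. Other cell types moved too: 10 of 10 mature granule neuron genes were lower in tumours, with sums of 33.3 to 54.6 against 276 to 309 in normal cerebella, and 9 of 11 microglia and macrophage genes were higher, with sums of 28.0 to 53.9 against 6.81 to 9.94. Their part in the differences between tumour and normal tissue was not tested. In such bulk tissue fewer cells of a type and less RNA per cell cannot be told apart. Each group of 3 arrays was 3 labelled samples, and the number of arrays limits the precision of every comparison.

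All 10 genes were higher in tumours than in normal cerebellum, by amounts that ran from 1.32-fold for Ccnd3 to a bound of 583-fold for Cdk1 (limma, adjusted p below the threshold of 0.05 for each). Of all 21667 genes tested, 43.5% were called higher, so a call alone is common. With the 4 genes not measurable in normal cerebellum at their bounds, the median change of the 10 genes was 4.97 on the log2 scale, against 0.14 over all genes tested. For all 10 genes every tumour lay above every normal cerebellum, which held for 36.4% of all genes tested. Each array is labelled as a sample of its own, and a p-value here covers no more than sample-to-sample spread.

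**Figure D1:**
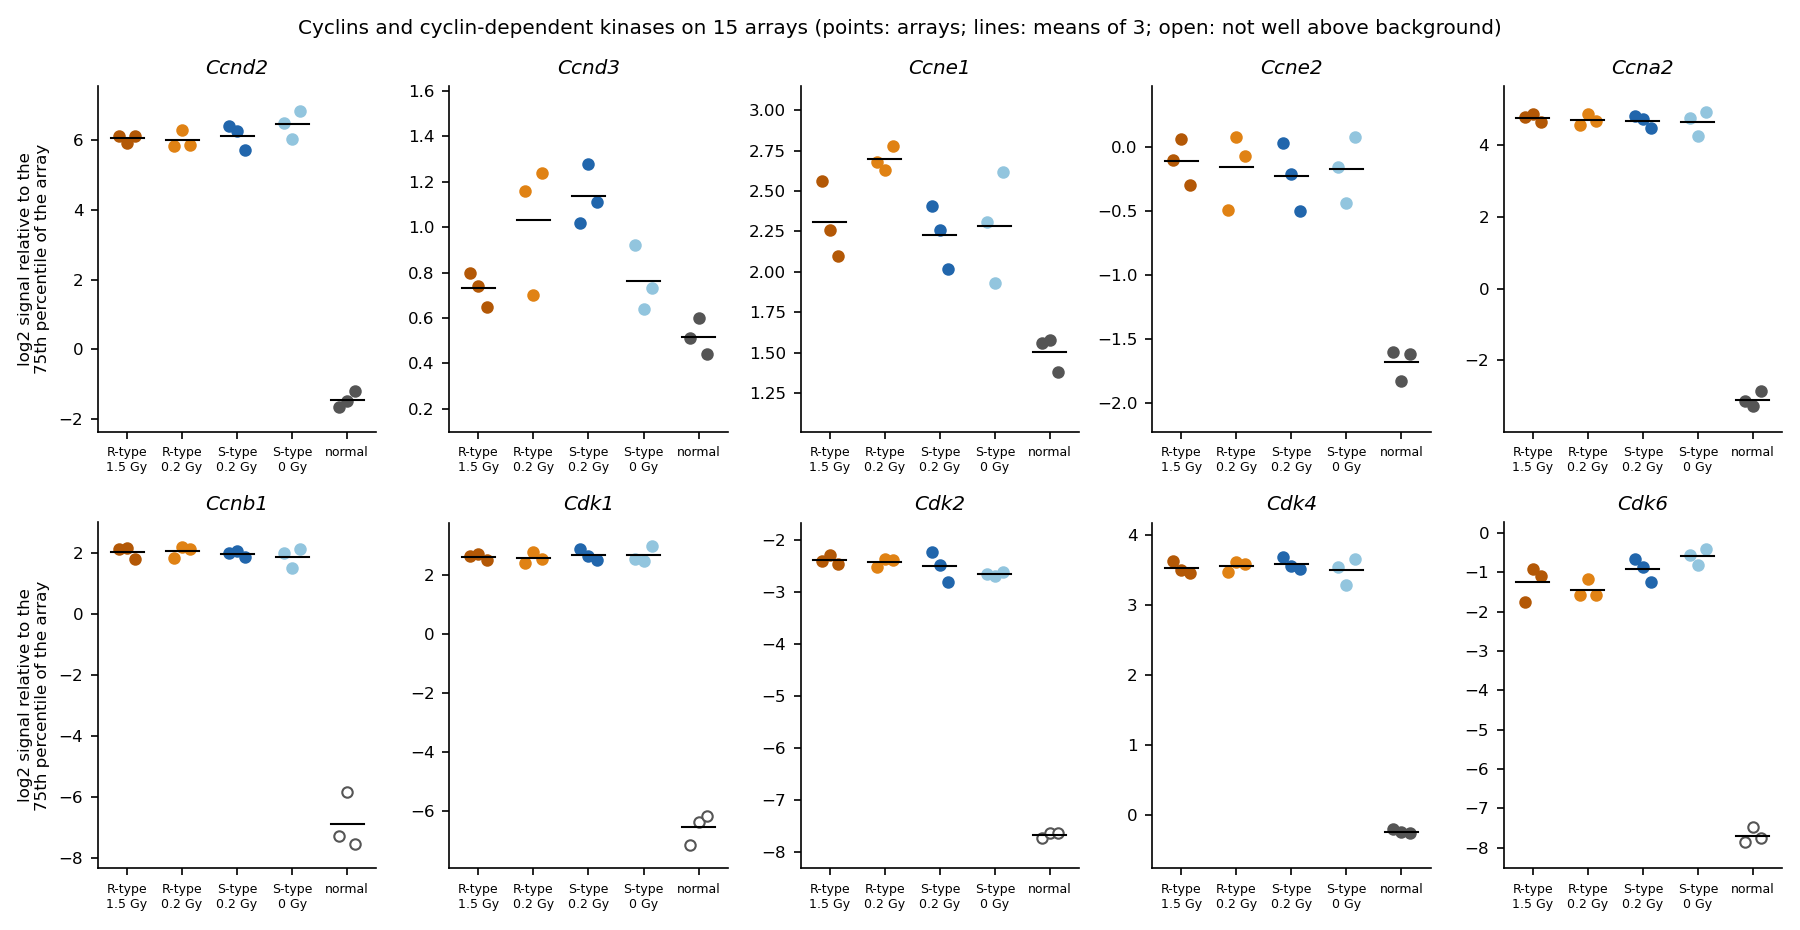
Log2 signal over the 75th percentile of its array (y axis, a separate range in each panel) for the 10 genes in R-type tumours at 1.5 and 0.2 Gy, S-type tumours at 0.2 and 0 Gy and normal cerebellum. Points are arrays, lines are means of 3, and open points mark normal cerebella where no probe of the gene was well above background; in each panel all 12 tumours lie above the 3 normal cerebella.

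The D-type cyclins, which pair with CDK4 and CDK6, differed widely in how far they rose. Ccnd2 (chromosome 6, transcript NM_009829) had 5.74, 6.14 and 6.84 as the lowest, median and highest value in the 12 tumours, against −1.64, −1.48 and −1.20 in the 3 normal cerebella. All tumours lay far above the normal tissue. The tumour mean was 6.17 ± 0.31 (SD, n = 12) and the normal mean −1.44 ± 0.22 (SD, n = 3), a rise of 7.61 on the log2 scale (SE 0.18, limma adjusted p = 3.27e-12). This is 195-fold, with a 95% confidence interval of 149.6 to 255.3, and Ccnd2 ranked at position 60 of the 13433 tested genes with a symbol by the size of its rise. Its other 2 probes rose by 7.50 and 7.39.

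Ccnd3 (chromosome 17, NM_007632) had the smallest rise of the 10 genes. It had 0.64, 0.86 and 1.28 as the lowest, median and highest value in tumours, against 0.44, 0.51 and 0.60 in normal cerebella. The lowest tumour stood just above the highest normal cerebellum. The difference was 0.40 (SE 0.11, limma adjusted p = 0.00415), or 1.32-fold with a 95% interval of 1.12 to 1.55. On the slides that held both tissues the difference was 0.34, 0.13 and 0.50. Without scaling between arrays it was 0.22 and the call was lost (limma adjusted p = 0.109).

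The kinases that D-type cyclins activate were both higher. Cdk4 (chromosome 10, NM_009870) had 3.29, 3.55 and 3.68 as the lowest, median and highest value in tumours, against −0.20, −0.24 and −0.26 in normal cerebella. It was the least variable of the 10 genes, with SDs of 0.11 over the 12 tumours and 0.03 over the 3 normal cerebella. The rise was 3.78 (SE 0.08, limma adjusted p = 9.54e-13), or 13.7-fold with a 95% interval of 12.2 to 15.4. Cdk6 (chromosome 5, NM_009873) had −1.75, −1.01 and −0.41 as the lowest, median and highest value in tumours. Neither of its probes was well above background on any normal array, where the used probe read −7.85, −7.47 and −7.76. For such genes the change is given as a bound and written as at least. It sets the tumour mean over the lowest signal of any probe called well above background on each normal array. Where the probe's own reading was higher, that reading was used. The bound carries no sampling error, and a single probe can need more signal, so it is not a strict minimum. An adjusted p beside a bound is that of the fitted change, which uses the readings below background. The bound itself was not tested. On normal 2 the lowest such signal was −6.95, and Ccnb1 read −5.82 there without being well above background. Cdk6 was at least 51.6-fold higher in tumours (limma adjusted p = 1.09e-11).

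The E-type cyclins rose modestly, while their kinase partner Cdk2 could be given only as a bound. Ccne1 (chromosome 7, NM_007633) had 1.93, 2.36 and 2.78 as the lowest, median and highest value in tumours, against 1.56, 1.58 and 1.38 in normal cerebella. The groups did not overlap, and the rise was 0.88 (SE 0.14, limma adjusted p = 6.48e-05), or 1.83-fold with a 95% interval of 1.50 to 2.25. Its second probe, dimmer on every array, rose by 0.84. Ccne2 (chromosome 4, NM_001037134) had −0.50, −0.13 and 0.08 in tumours by the same 3 measures, against −1.60, −1.83 and −1.62 in normal cerebella. It rose by 1.51 (SE 0.15, limma adjusted p = 9e-07), or 2.86-fold with a 95% interval of 2.29 to 3.56. Cdk2 (chromosome 10, NM_016756) had −2.80, −2.47 and −2.24 in tumours by the same measures and was not well above background in normal cerebella, where it read −7.73, −7.62 and −7.63. It was at least 19.1-fold higher in tumours (limma adjusted p = 4.34e-13).

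The genes that act from DNA synthesis into mitosis, Ccna2, Ccnb1 and Cdk1, were all higher in tumours, by 221-fold or by bounds of 329-fold and 583-fold. Ccna2 (chromosome 3, NM_009828) had 4.27, 4.74 and 4.94 as the lowest, median and highest value in tumours, against −3.14, −3.28 and −2.85 in normal cerebella, where it was still well above background on all 3 arrays. Tumours and normal tissue were thus both measured, and the rise was 7.79 (SE 0.14, limma adjusted p = 3.07e-13), or 221-fold with a 95% interval of 180.2 to 271.8. Ccnb1 (chromosome 13, NM_172301) had 1.51, 2.04 and 2.22 in tumours by the same measures. None of its 3 probes was well above background on a normal array, where the used probe read −7.27, −5.82 and −7.55. The bound for Ccnb1 was 329-fold (limma adjusted p = 4.21e-11), inside the 95% interval of its fitted change, 308.4-fold to 716.7-fold.

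Cdk1 (chromosome 10, NM_007659), the partner of cyclin B1, had 2.41, 2.61 and 2.98 as the lowest, median and highest value in tumours. It was not well above background in normal cerebella, where it read −7.15, −6.37 and −6.18. The bound for Cdk1 was 583-fold (limma adjusted p = 5.93e-13), close to its fitted change of 591.1-fold. It lay inside the 95% interval of that change, 453.3-fold to 770.8-fold, so the bound is not a strict minimum. The second Cdk1 probe was far dimmer in tumours, between −4.43 and −3.72, and its fitted change against normal readings below background was 3.48 (limma adjusted p = 2.13e-10). The bounds hold for the signal with the background subtraction of the extraction tool. With normexp correction and quantile normalization, which lift low signals, the fitted changes of the same 4 genes were smaller but called, at 6.69 for Cdk1, 6.16 for Ccnb1, 3.46 for Cdk6 and 2.06 for Cdk2 on the log2 scale. With the mean of all probes of a gene Cdk2 gave 3.24 and Cdk1 6.34. The Cdk2 mean takes in its second probe, which was well above background on 1 array.

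**Figure D2:**
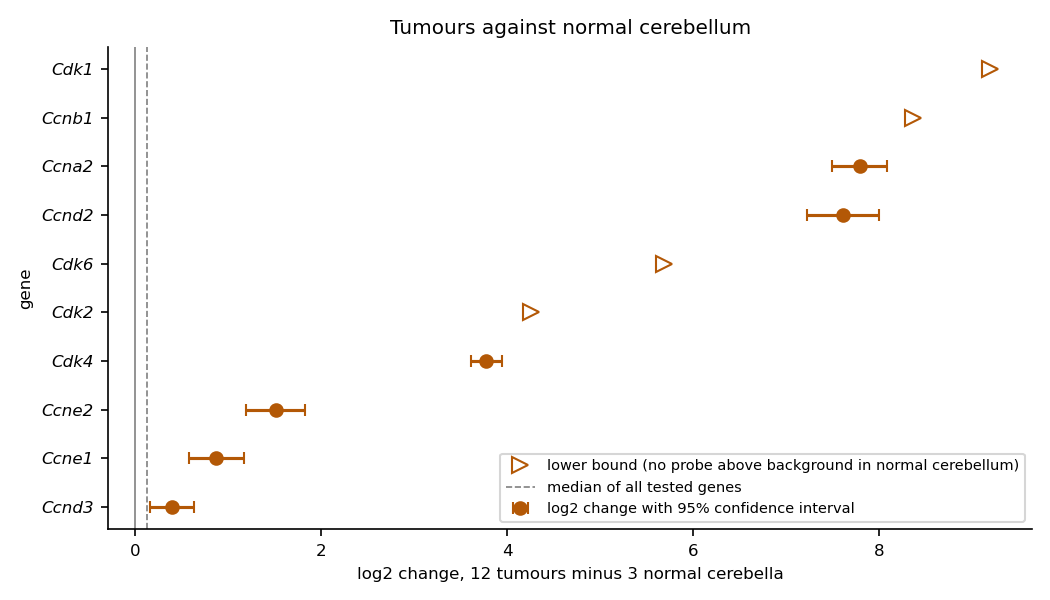
Log2 change of the 10 genes, 12 tumours minus 3 normal cerebella. Filled points show the change with its 95% confidence interval, and the dashed line is the median of all tested genes (0.14). Open triangles show bounds, without an interval, for genes with no probe well above background in normal cerebellum. The changes run from 0.40 for Ccnd3 to a bound of 583-fold for Cdk1.

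Each tumour group was also set against the same 3 normal cerebella, so these 4 comparisons share their controls. Called higher were 9 of the 10 genes in R-type tumours at 1.5 Gy, 10 in R-type tumours at 0.2 Gy, 10 in S-type tumours at 0.2 Gy and 9 in S-type tumours at 0 Gy. The shares of all genes called higher were 41.2%, 40.9%, 40.9% and 41.2% in the same order of groups. The gene that missed was Ccnd3 both times. Its differences from normal cerebellum were 0.21 in R-type tumours at 1.5 Gy (limma adjusted p = 0.17), 0.52 in R-type tumours at 0.2 Gy (0.00385), 0.62 in S-type tumours at 0.2 Gy (0.00117) and 0.25 in S-type tumours at 0 Gy (0.116, or 0.0389 without MB8). The bound for Cdk6 was 44.9-fold in R-type tumours at 1.5 Gy, 39.4-fold in R-type tumours at 0.2 Gy, 56.5-fold in S-type tumours at 0.2 Gy and 71-fold in S-type tumours at 0 Gy. The bounds for Cdk1 lay between 558-fold and 603-fold, those for Ccnb1 between 306-fold and 344-fold, and those for Cdk2 between 17-fold and 20.6-fold.

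Between the tumour types 1 of the 10 genes was called, Cdk6, which was lower in R-type tumours; 10.1% of all genes tested were called lower. None of the 10 was called higher. Cdk6 had −1.75, −1.37 and −0.92 as the lowest, median and highest value in the 6 R-type tumours, against −1.24, −0.73 and −0.41 in the 6 S-type tumours. The R-type tumours MB11, MB12 and MB8, at −0.92, −1.10 and −1.17, lay above the lowest S-type tumour, MB6. The means were −1.35 ± 0.33 in R-type and −0.76 ± 0.29 in S-type tumours (SD, n = 6 each), a difference of −0.59 (SE 0.16, limma adjusted p = 0.0223), or 0.66-fold with a 95% interval of 0.52 to 0.84. The second Cdk6 probe differed by −0.33 (SE 0.09, limma adjusted p = 0.0246).

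The arrays lay on 4 slides, each with both tumour types. Within slides the Cdk6 difference, R-type minus S-type, was −0.73, −0.63, −0.68 and −0.87, and with the slide as a block it was −0.71 (limma adjusted p = 0.00256). Without MB4 it was −0.52 and without MB9 −0.56, and the call was lost in both (limma adjusted p = 0.052 and 0.0564). The microglia and macrophage sum was 28.0 to 45.8 in R-type and 35.7 to 53.9 in S-type tumours (2 of 11 genes called lower in R-type tumours), and its part in the Cdk6 difference was not tested. Under the other 23 alternatives that tested Cdk6 the difference was between −0.81 and −0.33 and was called; Cdk6 was not tested where a signal well above background was required on all arrays.

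**Figure D3:**
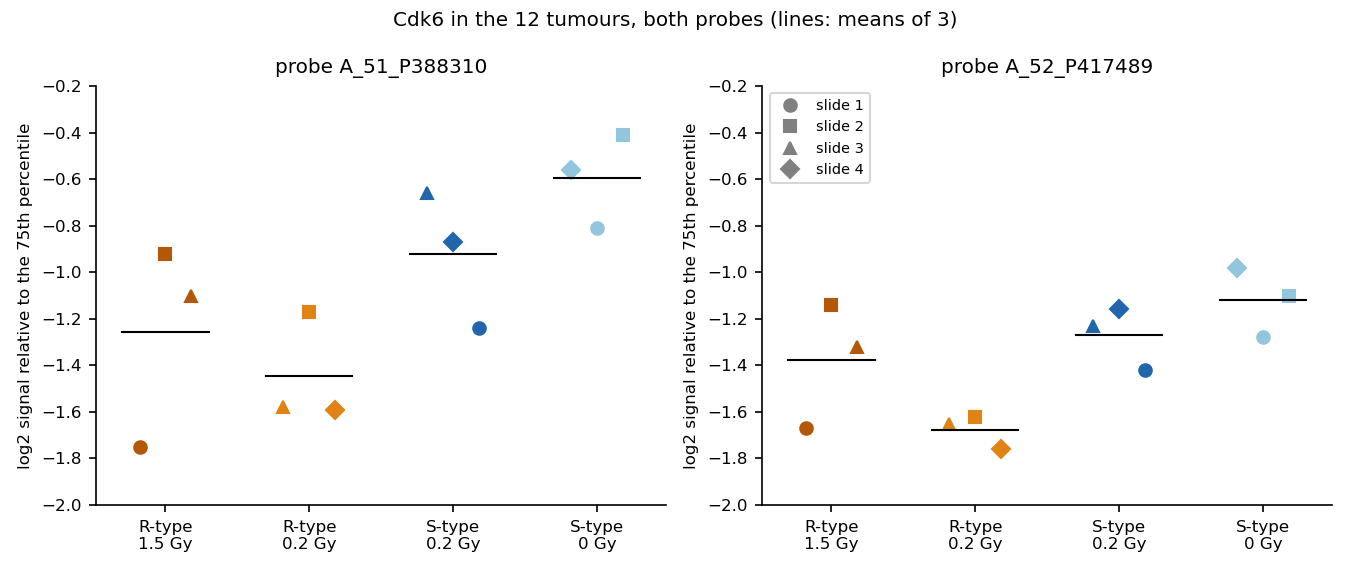
Log2 signal of both Cdk6 probes relative to the 75th percentile (y axis) in the 4 tumour groups, with the symbol showing the slide and lines showing means of 3. On both probes the mean of each R-type group lies below that of each S-type group, and single tumours of the types overlap.

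The Cdk6 group means were, from the lowest, −1.44 ± 0.24 in R-type tumours at 0.2 Gy, −1.26 ± 0.44 in R-type tumours at 1.5 Gy, −0.92 ± 0.30 in S-type tumours at 0.2 Gy and −0.59 ± 0.20 in S-type tumours at 0 Gy (SD, n = 3 each). Neighbours in that order overlapped in their values. At the matched dose of 0.2 Gy, R-type tumours had −1.58, −1.17 and −1.59, against −0.66, −0.87 and −1.24 in S-type tumours. One R-type tumour, MB8, lay above the lowest S-type tumour, MB6, and the difference was −0.52 (SE 0.22, 95% interval −1.01 to −0.03, limma adjusted p = 0.202). On the slides that held both groups it was −0.92 and −0.71, and with the slide as a block it was −0.72 and was called (limma adjusted p = 0.0298). Between the extremes of dose, R-type tumours at 1.5 Gy had −1.75, −0.92 and −1.10, against −0.56, −0.81 and −0.41 in S-type tumours at 0 Gy. These groups did not overlap on the used probe. The difference was −0.66 (SE 0.22, 95% interval −1.15 to −0.17, limma adjusted p = 0.0844), or −0.69 and called with the slide as a block (limma adjusted p = 0.0172). On the second probe these groups overlapped, with MB11 at −1.14 above MB2 at −1.28, and differed by −0.25 (limma adjusted p = 0.231). At 0.2 Gy the second probe differed by −0.40 without overlap (limma adjusted p = 0.0906).

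Ccnd2 differed by −0.26 between R-type and S-type tumours (SE 0.16, 95% interval −0.60 to 0.09, limma adjusted p = 0.27). It had 5.85, 6.04 and 6.31 as the lowest, median and highest value in R-type tumours, against 5.74, 6.33 and 6.84 in S-type tumours, so the R-type range lay inside the S-type range. This value depended on the scaling. Ccnd2 was called lower in R-type tumours with no scaling between arrays (−0.48, limma adjusted p = 0.0353), where the median of all genes was itself −0.20. It was also called lower with quantile normalization (−0.41, 0.0472) and with normexp background correction before quantile normalization (−0.40, 0.0294). Within slides the Ccnd2 difference was 0.25, −0.72, −0.41 and −0.51.

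Ccne1 differed between the types by 0.25 (SE 0.12, 95% interval −0.02 to 0.51, limma adjusted p = 0.168). At 0.2 Gy it had 2.68, 2.63 and 2.78 in R-type tumours, against 2.41, 2.26 and 2.02 in S-type tumours, without overlap. The difference of 0.47 did not pass (SE 0.17, 95% interval 0.10 to 0.84, limma adjusted p = 0.133). Its second probe had −1.86, −1.90 and −1.83 in these R-type tumours, against −2.15, −2.26 and −2.50 in these S-type tumours, also without overlap. Within the 2 slides that held both groups the Ccne1 difference was 0.27 and 0.52. Without MB3 the difference over all doses was 0.33 and was called (limma adjusted p = 0.0492).

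Cdk2 differed between the types by 0.18 (SE 0.08, 95% interval −0.002 to 0.36, limma adjusted p = 0.145). It had −2.40, −2.28 and −2.46 in R-type tumours at 1.5 Gy, against −2.65, −2.70 and −2.62 in S-type tumours at 0 Gy, without overlap, a difference of 0.28 that did not pass (SE 0.12, limma adjusted p = 0.157). Without MB4 the difference between the types was 0.25 and was called (limma adjusted p = 0.0366).

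The remaining 6 genes differed by less between the types, and none was called. The differences, R-type minus S-type, were −0.07 for Ccnd3, 0.06 for Ccne2, 0.07 for Ccna2, 0.12 for Ccnb1, −0.08 for Cdk1 and 0.00 for Cdk4. Their 95% intervals were narrowest for Cdk4, from −0.15 to 0.15, and widest for Ccnb1, from −0.43 to 0.66. These intervals hold the sizes of difference that 6 arrays in each type leave possible. For Cdk4 the setting without scaling gave −0.22 and a call (limma adjusted p = 0.0416), in which the median of all genes was itself −0.20, against 0.02 with scaling.

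None of the 10 genes was called between the types at 0.2 Gy, where limma called 4.77% of all genes in either direction. An unadjusted p below 0.05 was found for 2 of the 10, against 21.9% of all genes. Over all genes the adjusted calls were 1033, against 432 without MB4, 390 without MB5, 469 without MB6, 408 without MB7 and 295 without MB9. With only the groups compared they were 456. None was called between R-type tumours at 1.5 Gy and S-type tumours at 0 Gy, where 10.2% of all genes were called. These were 2209 calls, against 1126 without MB11 and 50 with only the groups compared. Again 2 of the 10 had an unadjusted p below 0.05, against 26.6% of all genes. With the slide as a block 1 was called in each, Cdk6. Values did not overlap between the types for 0 of the 10 genes (9.34% of all genes), at 0.2 Gy for 1, Ccne1 (32.5%), and between the extremes of dose for 2, Cdk2 and Cdk6 (25.8%).

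Dose within a type made no call among the 10 genes. R-type tumours at 1.5 against 0.2 Gy gave 0 of 10 calls with limma (2 at an unadjusted p below 0.05, against 7.05% of all genes), and 0.0692% of all genes were called. Over all genes these were 15 calls, against 159 without MB8, 27 without MB11, 25 without MB10 and 9 without MB9. S-type tumours at 0.2 against 0 Gy gave 0 of 10 calls with limma (1 at an unadjusted p below 0.05, against 5.75% of all genes), and 0.00462% of all genes were called. That was 1 gene, against 17 without MB1 and 0 to 2 without any other array. The widest 95% interval among the 10 genes reached 0.77 to either side in both comparisons, for Ccnb1, whose spread took in the normal readings below background.

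Ccne1 and Ccnd3 separated by dose in single comparisons without passing. In R-type tumours Ccne1 had 2.56, 2.26 and 2.10 at 1.5 Gy, against 2.68, 2.63 and 2.78 at 0.2 Gy, a difference of −0.39 (SE 0.17, 95% interval −0.76 to −0.02, limma adjusted p = 0.688). It was the 1 gene of the 10 whose values did not overlap there, as for 11.8% of all genes. In S-type tumours Ccnd3 had 1.02, 1.28 and 1.11 at 0.2 Gy, against 0.92, 0.64 and 0.73 at 0 Gy, a difference of 0.37 (SE 0.13, 95% interval 0.08 to 0.67, limma adjusted p = 0.773). It was the 1 gene without overlap in that comparison, as for 8.4% of all genes. In R-type tumours Ccnd3 had 0.80, 0.74 and 0.65 at 1.5 Gy, against 1.16, 0.70 and 1.24 at 0.2 Gy, with MB8 among the values at 1.5 Gy (difference −0.31, limma adjusted p = 0.69).

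**Figure D4:**
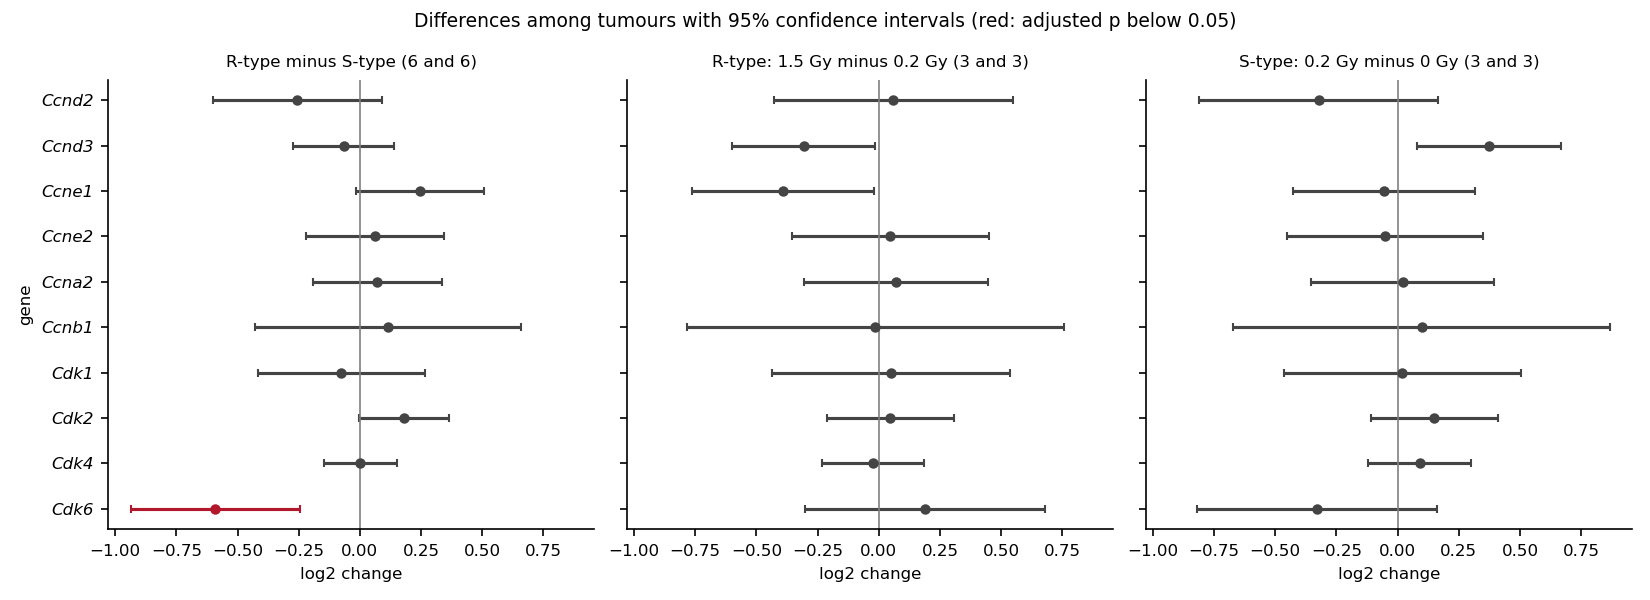
Log2 differences of the 10 genes between tumour types (left) and between doses within R-type (middle) and S-type tumours (right). Points are differences and bars are 95% confidence intervals; Cdk6 between the types, in red, is the 1 difference with an adjusted p below 0.05.

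The SD over the 12 tumours was highest for Cdk6 (0.43), Ccnd2 (0.31) and Ccne1 (0.28), which lay above 0.26, the median of all tested genes, and the other 7 genes lay below it. The S-type tumour MB2 had the lowest value of all tumours for 5 of the genes, and MB6 for 3. MB3 had the highest value among S-type tumours for 7 of the genes. The summed signal of the 20 proliferation genes was also lowest in MB2, at 310, and it was 385 to 460 in R-type tumours against 310 to 437 in S-type tumours; its part in the differences between the types was not tested.

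**Figure D5:**
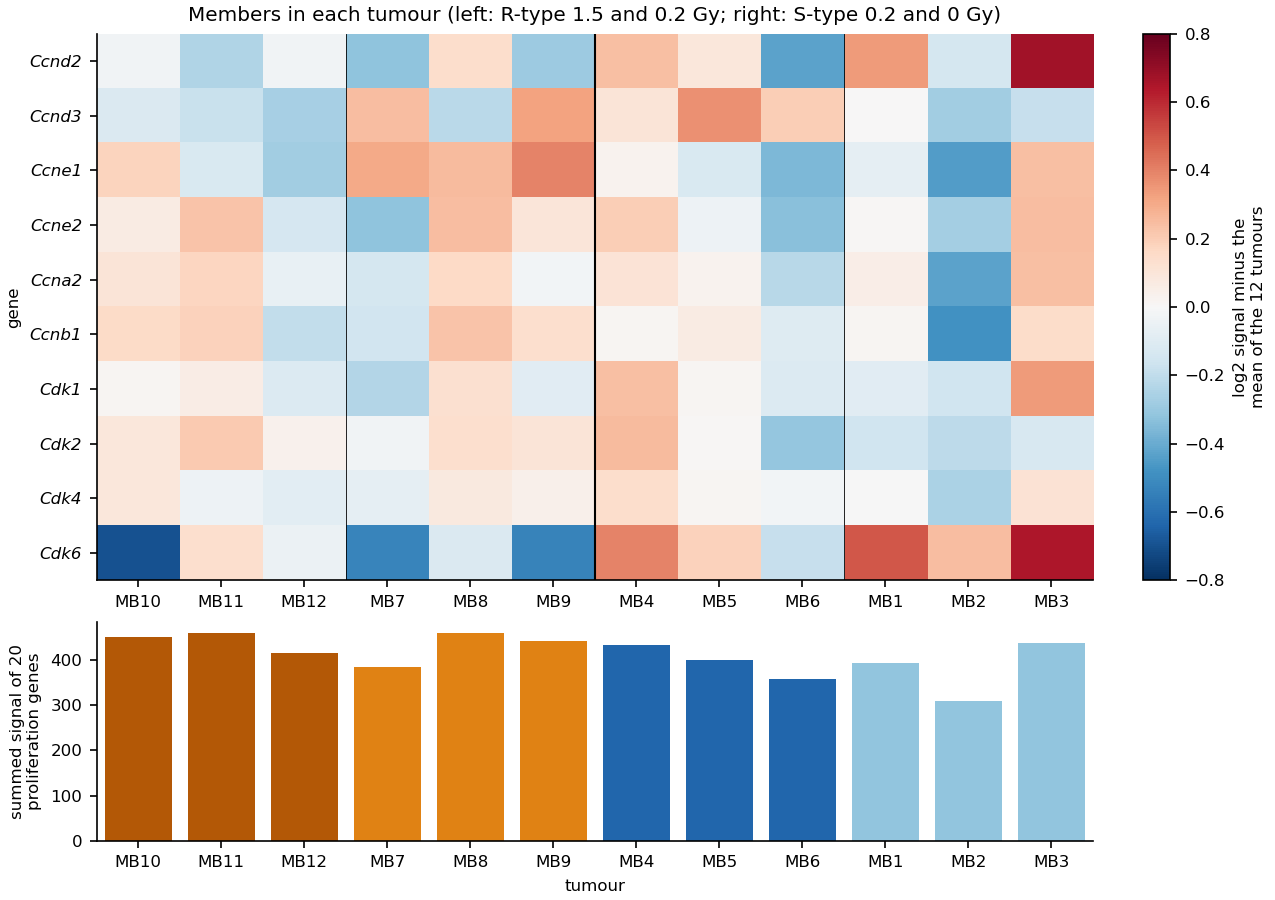
Top, log2 signal of each gene in each tumour minus the mean of that gene over the 12 tumours (colour), with R-type tumours at 1.5 and 0.2 Gy on the left and S-type tumours at 0.2 and 0 Gy on the right. Bottom, summed linear signal of 20 proliferation genes in the same tumours, in units of the 75th percentile of the array; MB2 is lowest at 310.

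The genes whose values over the 15 arrays lay closest to each member were found by the root mean square difference of log2 signals, each gene centred on its own mean, among 13433 tested genes with a symbol. Nearest to Ccna2 were Cdca2 (0.09), Cep55 (0.10) and Ndc80 (0.12), and nearest to Cdk1 were Nusap1 (0.14), Cenpf (0.16) and Kif23 (0.20). Nearest to Ccnb1 were Bub1 (0.26), Cdca5 (0.30) and Kif18b (0.35). Most of these encode proteins of the kinetochore, the spindle or cell division. Ccnd2 was nearest to Foxm1 (0.18), a transcription factor of late cell cycle genes, then to Ndc80 and Cep55. Cdk4 was nearest to Ppp1r14b (0.07), Ier5 (0.09) and Mcm7 (0.11), a subunit of the replicative helicase. Cdk2 was nearest to Tgif2 (0.12), Nsl1 (0.13) and Cenpi (0.14), and Cdk6 to Hsd11b2 (0.32), Cd1d1 (0.33) and the cyclin Ccna1 (0.33). The genes with small rises were nearest to genes of other kinds: Ccne1 to Ufm1 (0.12), Ccne2 to Spg21 (0.10) and Ccnd3 to H2-Q7 (0.14). The measure follows mostly the difference between tumour and normal tissue, which all these genes share.

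Other cyclins moved in both directions. Of 16 tested, 8 were higher and 2 lower in tumours, with a median change of 0.32 on the log2 scale, against 0.14 over all genes. Over all genes 43.5% were called higher and 35.4% lower, so the share higher is near that background. Ccnb2, the second B-type cyclin, rose by 5.27 (limma adjusted p = 4.83e-11) and Ccnf by 3.84 (5.36e-11). Ccna1 was at least 104-fold higher (7.76e-11), and Ccnj rose by 0.85 (6.93e-07). Of 17 other cyclin-dependent kinases and activators of Cdk5, 7 were higher and 7 lower, with a median of 0.05, also near the background shares. Among those lower were Cdk16 by −1.48, Cdk20 by −1.62 and Cdk18 by −3.87 (limma adjusted p between 5.82e-10 and 4.31e-08).

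Partners of the cyclin-CDK complexes mostly rose. Over all genes 43.5% were called higher and 35.4% lower, the background for the counts here. Of 16 regulators tested, 12 were higher and 2 lower in tumours, with a median of 0.94. Cdc25c, the phosphatase that activates CDK1, was at least 95-fold higher. Cdc20, which directs the destruction of cyclin B1, rose by 5.46, and the CDK-binding subunits Cks1b and Cks2 rose by 5.35 and 5.55 (limma adjusted p between 2.96e-13 and 6.03e-12 for the 4 genes). Of 20 genes of the retinoblastoma and E2F axis, 15 were higher and 4 lower, with a median of 1.55. E2f8 was at least 98.4-fold higher, and E2f7, E2f2 and E2f1 rose by 5.48, 7.03 and 5.44. All 20 proliferation genes were higher, with a median of 6.91; Aurkb, a mitotic kinase, was at least 253-fold higher, Ttk, a kinase of the spindle checkpoint, was at least 41.7-fold higher, Tpx2 rose by 6.58 and Tyms by 5.66.

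The inhibitors of cyclin-dependent kinases rose as well. All 7 tested were higher in tumours, with a median of 2.28, and 43.5% of all genes were called higher. Cdkn2c, an INK4 inhibitor of CDK4 and CDK6, rose by 3.88 (SE 0.12, limma adjusted p = 4.79e-11). Cdkn2a, which encodes an INK4 inhibitor and the p53 regulator ARF, was at least 57.6-fold higher (1.78e-09). Cdkn2b, the neighbouring INK4 gene, rose by 2.72 (5.89e-08) and Cdkn1a, a p53 target that inhibits CDK2, by 2.02 (6.95e-06).

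Between the tumour types 2 of the 7 inhibitors were called, both lower in R-type tumours, where 10.1% of all genes were called lower. Cdkn2a averaged −2.30 ± 0.70 in R-type and 0.50 ± 0.79 in S-type tumours (SD, n = 6 each), a difference of −2.80 without overlap (SE 0.30, limma adjusted p = 0.000134). Cdkn2b averaged 0.53 ± 0.51 in R-type and 1.59 ± 0.27 in S-type tumours, a difference of −1.07 with overlap (SE 0.17, limma adjusted p = 0.00188). The other 5 inhibitors tested were not called. Of the 16 regulators 2 were called lower and 2 higher, near the shares of all genes, 10.1% and 10.9%. Among the regulators Cks2 was lower in R-type tumours by −0.90 without overlap (SE 0.12, limma adjusted p = 0.000802) and Cdc25a, a phosphatase that activates CDK2, by −0.34 (0.0173), while Mnat1, a subunit of the CDK-activating kinase, was higher by 0.32 (0.0108) and Cul3 by 0.21 (0.0484).

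In R-type tumours 10.9% of all tested genes were called higher and 10.1% lower, so the few calls in the lists that follow show nothing particular to a list. Of the other cyclins, Ccny was higher in R-type tumours by 0.40 (SE 0.06, limma adjusted p = 0.00162) and Ccno lower by −0.63 (0.0493). Of the other kinases 3 were lower in R-type tumours and none higher: Cdk20 by −0.84 without overlap (SE 0.07, limma adjusted p = 2.34e-05), Cdk13 by −0.60 (0.0288) and Cdk11b by −0.18 (0.0353). In the retinoblastoma and E2F axis 1 of 20 genes was called, E2f5, higher by 0.36 (0.00498). Of the 20 proliferation genes 3 were higher in R-type tumours and none lower: Rrm2 by 0.60 (0.0234), Mcm5 by 0.31 (0.0313) and Pcna by 0.30 (0.0438). Without scaling between arrays the median of all genes moved to −0.20 in this comparison, with 577 genes called higher and 5804 lower, against 2360 higher and 2183 lower with scaling.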

How the data were processed

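RNA from each of the 12 tumours and 3 normal cerebella was labelled with Cy3 and read on its own array, and no pooling is stated. The deposited files hold spot intensities with background subtraction and spatial detrending by the authors, per the file headers. The submitters' processing notes name Agilent Feature Extraction 9.5.1. The deposited series table held log2 values of the same arrays, used only as an alternative. Its differences between arrays correlated at 0.9999 or more with those of the values used here, and its columns for MB1 and MB2 summed to 0, so it was read as centred on these 2 arrays; the scale before that step is unknown. Its column medians were 0.0912, 0.1522 and 0.0996 (R-type, 1.5 Gy), 0.0704, 0.1304 and 0.1272 (R-type, 0.2 Gy), 0.0683, −0.0795 and 0.0526 (S-type, 0.2 Gy), 0.0506, −0.0506 and 0.1059 (S-type, 0 Gy) and 0.0023, 0.0817 and 0.0889 (normal).

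Processed signals were divided by the 75th percentile of their array and converted to log2. Control spots and 76 probes marked as outliers were left out. A RefSeq accession was given for 26335 of 41098 probes, and a table of RefSeq genes named 24800 of them. The array annotation and that table rest on different genome builds, so chromosomes are given without gene coordinates. For each of 32628 names the probe with the highest mean was used, and the test took in 21667 names whose probe was well above background on 3 or more arrays. The 5 group means were estimated with limma 3.58.1 under R 4.3.3 (lmFit and eBayes, 10 residual degrees of freedom, 1.71 prior), two-sided, with Benjamini-Hochberg adjustment over all tested names at 0.05, in 10 comparisons. On simulated data for R-type against S-type over 21667 genes, 100 genes were changed by 0.5 and 100 by 1 on the log2 scale. Of these, 40% and 72% were recovered, and 6.67% of the calls were false. In the real comparison 21% of all genes were called, so this recovery need not hold there. Python 3.11.15 was used with numpy 2.4.6 and pandas 2.3.3.

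The genes described and the lists were chosen with earlier results of these data known. Named beside them were the 3 nearest genes of each and, of each pathway list, up to 4 genes with the smallest adjusted p against normal cerebellum and up to 4 called between the types. One gene that this rule names is not reported here. Alternatives were no scaling, quantile normalization, normexp on raw intensities with an offset of 50, the deposited table, other filters on dim probes, other probes, the slide as a block, an intensity trend, only the groups compared and leaving out each array.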

Additional observations from a re-analysis of the deposited data

Results flagged for a closer look

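Cdk6 was flagged because it differed between the tumour types, by −0.591 on the log2 scale, R-type minus S-type (SE 0.159, limma adjusted p = 0.0223). The normal cerebella cancel in this difference, so it is the comparison between the types given above and not a separate test. The call was lost without MB4 and without MB9 (limma adjusted p = 0.052 and 0.0564). Of all genes tested, 10.1% were called lower in R-type tumours. The bounds against normal cerebellum were 39.4-fold to 44.9-fold in the R-type groups and 56.5-fold to 71-fold in the S-type groups. The R-type and S-type tumours also differed in age and dose, which cannot be told apart from type here.

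The second Cdk2 probe was not tested singly and entered only the setting with the mean of all probes of a gene. It was well above background on 1 of 15 arrays, that of the R-type tumour MB12 at 1.5 Gy. There it read −4.14 on the log2 scale relative to the 75th percentile. It was not well above background on any array of normal cerebellum.

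Among 20 groups of 6 tumours, the 10 genes in each type, no single tumour stood apart from the others by Dixon's test at 95%, where chance gives about 1 in 20.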

How the results depend on the processing

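Of 2550 values of single genes under an alternative setting, 2535 kept their direction where called and their side of the threshold, 4 lost a call, 10 gained one and 1 reversed. The reversal was Cdk4 between the types, −0.2191 without scaling. Requiring a signal well above background on all arrays left 6 of the 10 genes to test; called were then 6 in tumours against normal cerebella, 0 between the types, and 5, 6, 6 and 5 against normal cerebellum in R-type tumours at 1.5 Gy, R-type at 0.2 Gy, S-type at 0.2 Gy and S-type at 0 Gy. Between the types the count was 3 without scaling (Cdk6, Ccnd2 and Cdk4), 2 with quantile normalization and 2 with normexp. Without scaling Cdk6 was called at 0.2 Gy (−0.77) and between the extremes of dose (−0.85), 1 gene in each. The medians of all genes were then −0.23 and −0.17. With the slide as a block likewise 1 gene was called in each. Ccnd3 lost its call against normal in R-type tumours at 0.2 Gy without scaling (0.25, limma adjusted p = 0.165). Leaving out 1 array gave 0 to 2 calls between the types, 10 to 10 in tumours against normal cerebella and 9 to 10 for S-type tumours at 0 Gy, where Ccnd3 was called without MB8. The cause of these changes was not tested, except where fewer genes were tested. Replicate numbers 1 to 3 are shared by the S-type tumours at 0 Gy and the normal cerebella, and with the replicate block 9 genes were called, as without it. Deviations of same-numbered arrays correlated at 0.045, −0.025 and 0, and those of differently numbered arrays at −0.053 to 0.048. No pairing was seen, but deviations within groups of 3 arrays cannot exclude one. Signal limits 4 of the genes to bounds in normal cerebellum.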
